A study of Mus musculus with 8 samples.

Results

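Sulfation joins a sulfonate group to hormones, bile acids, amines and drugs, which makes them easier to excrete and usually ends their action. The donor of the group is PAPS, which PAPS synthases make from ATP and inorganic sulfate, and the enzymes that use it in the cytosol are the SULT sulfotransferases. The 8 genes of this system described here, apart from the Sult2a hydroxysteroid branch, were measured in mouse liver: Sult1a1, Sult1b1, Sult1c2, Sult1d1, Sult3a1, Sult5a1, Papss1 and Papss2. They were chosen by gene symbol, each had 1 row in the deposited table, and they make up 8 of its 22013 genes. In liver the SULT1 enzymes sulfate phenols, catechols and iodothyronines, and sulfation speeds the deiodination of iodothyronines, which ties the family to thyroid hormone turnover.

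Poly(A)-selected liver RNA was sequenced in 4 libraries titled for resmetirom and 4 titled as controls. Resmetirom activates thyroid hormone receptor beta, the receptor form that prevails in hepatocytes. In the series' design, mice were fed an FPC diet (fructose, palmitate and cholesterol) for 12 weeks to induce metabolic dysfunction-associated steatohepatitis, and resmetirom was given by intraperitoneal injection, 5 mg/kg/day, from week 4 for 8 weeks, the vehicle being 0.5% CMC-Na with 0.4% Tween-80. For the control group the labels state neither diet nor vehicle, so these cannot be told apart from the drug, and neither strain, age nor sex is given for either group. Nothing in the labels says that each library came from its own animal, so p-values reflect library-to-library spread, which may be technical.

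Libraries held 16787561 to 19887539 counts. Y-linked transcripts were present in all 8, with at least 114 counts for each of 4 genes. Hepatocyte markers summed to 92500 to 103000 CPM (read counts relative to the scaled library total) in resmetirom libraries and 78900 to 89600 CPM in control libraries, while 3 of 5 kidney markers had no counts and adipocyte markers summed to 0 CPM with resmetirom and at most 1.68 CPM in controls. Alb made up most of the hepatocyte sums, at 73190 CPM with resmetirom and 58270 CPM in controls. The median change (log2) of the 7 hepatocyte markers was 0.057. Major urinary protein genes, 22 abundant genes, took 7.54%, 20.1%, 25.1% and 17.8% of the counts in resmetirom replicates 1 to 4 and 4.32% to 7.05% in controls. The tested genes had a median change (log2) of -0.31 with library sizes alone and of -0.41 in log2(TPM + 1), against -0.0043 with TMM factors. Levels below are CPM scaled by TMM factors, and changes are relative to that scaling.

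Of the 8 genes, 7 had enough counts to be tested and 4 rose with resmetirom: Sult5a1, Sult1a1, Papss2 and Sult1d1. None fell. Among all 12207 genes tested, 2.60% rose and 1.99% fell by the same rule, a Benjamini-Hochberg adjusted p under 0.05 from edgeR's quasi-likelihood test. Sult5a1 passed the count filter through its resmetirom libraries, since 1 control library lay below the 0.549 CPM that the filter asks of 4 libraries. The 8 genes were also chosen with earlier results of these data known. The count of 4 is therefore no support for a shift of the 8 genes as a set. Sult3a1 was too rare for the filter but had 46 counts in the resmetirom libraries, against 1 in the control libraries. Sult1b1, Sult1c2 and Papss1 did not pass the test. The plot of each gene by library shows full separation, every resmetirom library above every control library, for Sult1a1, Sult1d1, Sult3a1, Sult5a1 and Papss2. Of all tested genes, 6.32% were separated in this direction and 5.50% in the other, 11.8% in all. In bulk tissue, fewer cells of a type and less RNA per cell cannot be told apart.

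**Figure D1:**
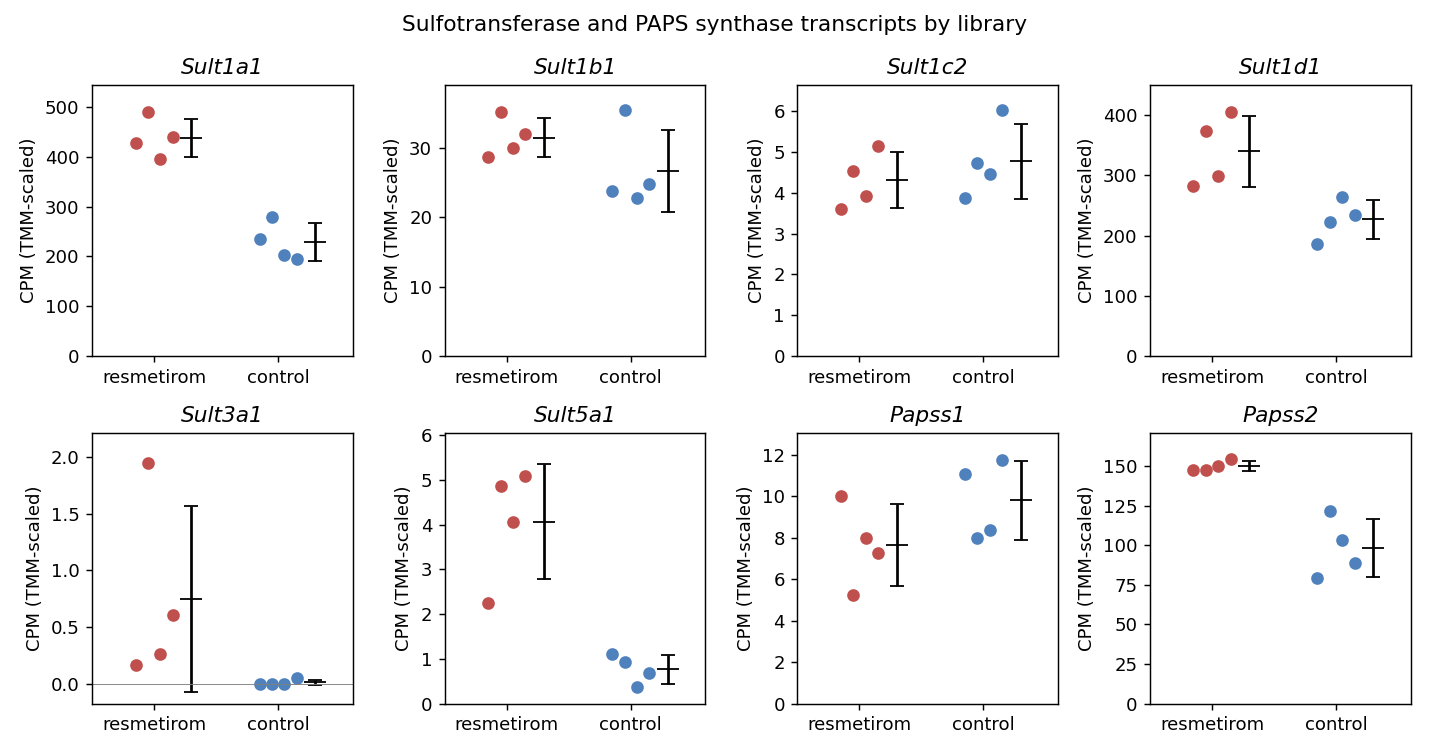
TMM-scaled CPM of the 8 genes on linear axes that start at 0, except that of Sult3a1, where the SD bar reaches below 0, with 1 point for each resmetirom (red, left) or control (blue, right) library and the mean with its SD (n = 4) in black. Groups do not overlap for Sult1a1, Sult1d1, Sult3a1, Sult5a1 and Papss2, and they overlap for Sult1b1, Sult1c2 and Papss1.

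The stretch of 250 bases before the transcription start is shown for the higher genes with a single listed start, so that their promoters can be set side by side. The sequences are from RefSeq on GRCm38.p6, 5′ to 3′ on the gene's strand, at chr7:126676419-126676668 (minus strand) for Sult1a1, chr5:87569007-87569256 (minus) for Sult1d1, chr10:33857472-33857721 (plus) for Sult3a1 and chr8:123158281-123158530 (minus) for Sult5a1. Capitals mark matches on either strand to GTTAAT (the core of an HNF1 site), TTCNNNGAA (a STAT site), AGGTCA (the nuclear receptor core, to which the thyroid hormone receptor binds) or TATAAA.
Sult1a1: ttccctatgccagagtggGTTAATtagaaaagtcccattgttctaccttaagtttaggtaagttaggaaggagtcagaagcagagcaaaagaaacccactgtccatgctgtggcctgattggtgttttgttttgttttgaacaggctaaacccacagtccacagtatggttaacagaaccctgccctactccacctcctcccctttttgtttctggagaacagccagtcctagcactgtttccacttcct
Sult1d1: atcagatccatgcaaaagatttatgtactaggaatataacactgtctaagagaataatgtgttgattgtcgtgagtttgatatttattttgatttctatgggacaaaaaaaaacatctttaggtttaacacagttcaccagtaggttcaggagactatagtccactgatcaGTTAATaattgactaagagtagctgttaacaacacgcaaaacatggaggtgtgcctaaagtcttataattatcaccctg
Sult3a1: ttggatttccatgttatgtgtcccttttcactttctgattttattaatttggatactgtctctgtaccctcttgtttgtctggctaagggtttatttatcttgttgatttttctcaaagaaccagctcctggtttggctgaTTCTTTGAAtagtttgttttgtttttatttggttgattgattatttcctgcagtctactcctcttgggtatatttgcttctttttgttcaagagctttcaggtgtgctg
Sult5a1: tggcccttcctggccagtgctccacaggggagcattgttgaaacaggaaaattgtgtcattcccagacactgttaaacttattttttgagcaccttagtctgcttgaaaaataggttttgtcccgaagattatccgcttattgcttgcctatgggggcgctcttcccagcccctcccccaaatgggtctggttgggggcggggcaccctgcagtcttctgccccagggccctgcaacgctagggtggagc

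Sult1a1 and Sult1d1 each hold GTTAAT on the gene's strand, at positions -232 and -79 relative to the start. This motif is found in 6.43% of 32851 promoter stretches of the same length. Sult3a1 holds TTCNNNGAA at position -109, a motif in 7.02% of stretches, and Sult5a1 holds none of the 4. AGGTCA, present in 14% of stretches, was not in these sequences and appeared, on the strand opposite to the gene, in 1 of the 2 listed promoters of Sult1b1 and of Papss2. AGGTCA repeated after any 4 bases, which contains the shorter motif, was in none of the 11 promoters of the 8 genes and in 0.0152% of all. A match is a run of letters and no evidence of binding, and a missing one says nothing of sites farther away.

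Papss2 encodes the main PAPS synthase of liver, which carries out both steps from sulfate to PAPS (ENSMUSG00000024899, chromosome 19, 32595790 to 32667187, plus strand, GRCm38). It was at 147.8, 147.5, 150 and 155 CPM in resmetirom replicates 1 to 4 and at 79.2, 122, 104 and 88.6 CPM in control replicates 1 to 4. In TMM-scaled CPM the resmetirom libraries lay within a narrow band, with a coefficient of variation of 2.22% against 18.9% in controls, and above all controls. In TPM the groups overlapped and the spreads were alike, at 55.8 ± 10.1 TPM with resmetirom and 51.2 ± 9.28 TPM in controls (SD, n = 4 each). Papss2 averaged 150 ± 3.33 CPM with resmetirom and 98.2 ± 18.5 CPM in controls (SD, n = 4 each). On the log2 scale it rose by 0.61 (SE 0.12, adjusted p = 0.0119). The call was lost without control replicate 4 (adjusted p = 0.0549), with library sizes alone (0.30, adjusted p = 0.130) and in log2(TPM + 1) (0.12, adjusted p = 0.535). In each of these scalings it stayed above the median of all genes, by 0.62 with library sizes alone and 0.53 on the TPM scale. Another scaling shifts all genes nearly alike, so this distance could hardly change and is no test of the scaling.

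Papss1 encodes the other PAPS synthase, which most tissues express (ENSMUSG00000028032, chromosome 3, 131564768 to 131643671, plus strand). It had 10.03, 5.26, 7.99 and 7.25 CPM in resmetirom replicates 1 to 4, against 11.1, 7.98, 8.36 and 11.8 CPM in control replicates 1 to 4. The groups overlapped. The log2 fold change was -0.36 (SE 0.21, 95% interval -0.87 to 0.16, adjusted p = 0.433). On the log2(TPM + 1) scale Papss1 passed as lower, at -0.59 (adjusted p = 0.0464), where the median of all genes was -0.41. The counts behind 1 TPM of Papss1, relative to the library's median gene, were 0.746 and 0.774 in resmetirom replicates 3 and 4 and 0.957 to 0.969 in the other 6 libraries, so the deposited TPM used a shorter length in those replicates. The gene model Gm42881 overlaps Papss1 on the opposite strand and is not analysed here.

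Per unit of length, in TPM (a length-corrected share of each library's transcripts), Papss2 was the more abundant of the pair in every library. Their ratio, Papss2 over Papss1, was 10.9, 20.6, 10.6 and 12.7 in resmetirom replicates 1 to 4 and 5.29, 11, 9.10 and 5.49 in control replicates 1 to 4. Replicate 2 had the highest ratio of each group, and control replicate 2 lay within the resmetirom range. In resmetirom replicates 3 and 4 the ratio, and the share and sum below, rest on the shorter length used for Papss1. Papss2 made up 92.8% ± 1.83 of the summed TPM of the pair with resmetirom and 87.6% ± 3.84 in controls (SD, n = 4 each). Their sum was 60.2 ± 11.4 TPM with resmetirom and 58.2 ± 8.30 TPM in controls (SD, n = 4 each).

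Sult1a1, the phenol sulfotransferase that is the most abundant of the 6 sulfotransferases here, lies on chromosome 7 (ENSMUSG00000030711, 126672865 to 126676432, minus strand). Its level was 428, 489.7, 396 and 439 CPM in resmetirom replicates 1 to 4 and 235, 280.1, 204 and 195 CPM in control replicates 1 to 4. The lowest resmetirom library was above the highest control library. With means of 438 ± 39.0 CPM and 229 ± 38.5 CPM (SD, n = 4 each) in resmetirom and control libraries, the change was 1.92-fold, or 0.94 on the log2 scale (SE 0.12, adjusted p = 0.000793). It held when any single library was left out (0.87 to 1.05) and with library sizes alone (0.64, adjusted p = 0.00812). In TPM the groups overlapped and the change was 0.44 (adjusted p = 0.0483), not called without a filter on low values (adjusted p = 0.0702). Sgf29 overlaps the end of Sult1a1 on the opposite strand, and the sources used here do not give strand handling. Sgf29 itself had 7.86 CPM with resmetirom and 9.70 CPM in controls and did not pass the test (log2 fold change -0.30, adjusted p = 0.353).

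Sult1d1, which in mice sulfates catecholamines and other amines with a phenol ring, sits between Sult1b1 and Sult1e1 on chromosome 5 (ENSMUSG00000029273, 87554645 to 87569027, minus strand). It was at 282, 374, 299.8 and 406 CPM in resmetirom replicates 1 to 4, against 186, 223, 265 and 234 CPM in control replicates 1 to 4. In TMM-scaled CPM the groups did not overlap, but the gap between the lowest resmetirom and the highest control library was narrow. In TPM the groups of Sult1d1 overlapped. Its log2 fold change was 0.58 (SE 0.14, adjusted p = 0.0308), or 1.5-fold. This call depended on single libraries. It was lost without resmetirom replicate 2 or 4 (adjusted p = 0.0828 and 0.0984), without control replicate 1, 2 or 4 (adjusted p = 0.0644, 0.0816 and 0.0898), with library sizes alone (0.26, adjusted p = 0.201) and in log2(TPM + 1) (0.073, adjusted p = 0.725).

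Sult1b1, which sulfates iodothyronines as well as phenols, lies 16450 bases from Sult1d1 (ENSMUSG00000029269, chromosome 5, 87513339 to 87538195, minus strand). It had 28.6, 35.2, 30.0 and 31.9 CPM in resmetirom replicates 1 to 4 and 23.8, 35.4, 22.7 and 24.7 CPM in control replicates 1 to 4. Control replicate 2 held the highest value of all 8 libraries, while the other 3 controls lay below every resmetirom library. Sult1b1 did not pass the test, at 0.24 on the log2 scale (SE 0.14, 95% interval -0.11 to 0.59, adjusted p = 0.445), which was -0.069 with library sizes alone and -0.19 on the log2(TPM + 1) scale. Unlike its neighbour Sult1d1 it was not called, but the difference between the genes was not tested.

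Sult1c2 is a further phenol sulfotransferase, on chromosome 17 (ENSMUSG00000023122, 53829637 to 53846339, minus strand). It was low, at 3.61, 4.55, 3.93 and 5.15 CPM in resmetirom replicates 1 to 4 and 3.87, 4.74, 4.45 and 6.03 CPM in control replicates 1 to 4. The ranges nearly coincide. The log2 fold change was -0.15 (SE 0.21, 95% interval -0.67 to 0.37, adjusted p = 0.795). In TPM the groups did not overlap, and Sult1c2 passed as lower in log2(TPM + 1), at -0.51 (adjusted p = 0.0435), which is 0.11 below the median of all genes on that scale.

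Sult5a1 had the largest fitted change of the 7 tested genes (ENSMUSG00000000739, chromosome 8, 123140192 to 123158315, minus strand). It was at 2.26, 4.87, 4.06 and 5.08 CPM in resmetirom replicates 1 to 4, against 1.12, 0.919, 0.364 and 0.692 CPM in control replicates 1 to 4. These values rest on 40 to 75 counts per resmetirom library and 8 to 24 per control library. The rise was 5.22-fold, or 2.38 on the log2 scale (SE 0.38, adjusted p = 0.00338), between 4.07 ± 1.29 CPM with resmetirom and 0.773 ± 0.324 CPM in controls (SD, n = 4 each). It was called under all 19 alternatives run, with a log2 fold change of 1.55 to 2.62 and an adjusted p of 9.85e-08 to 0.0256. The lowest value, 1.55, is on the log2(TPM + 1) scale, where the pseudocount shrinks changes of low genes. The 14 counts of control replicate 4 stand beside 0.516 TPM and the 8 counts of control replicate 3 beside 0.717 TPM, so the length used for Sult5a1 differed between libraries. The gene model Gm20388 overlaps Sult5a1 on the opposite strand and is not analysed here.

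Sult3a1, which in mice transfers sulfonate to amines and is expressed more in female than in male liver, was near the limit of detection (ENSMUSG00000069668, chromosome 10, 33857721 to 33879532, plus strand). It had 3, 30, 4 and 9 counts in resmetirom replicates 1 to 4 and 0, 0, 0 and 1 count in control replicates 1 to 4. Replicate 2 thus held most of the resmetirom counts. The ratio of summed counts, scaled by library size and TMM factors, was 61.7 with an exact 95% binomial interval of 10.5 to 2490, which covers counting error only. On the log2 scale the ratio was 5.95, and 4.83 without resmetirom replicate 2. When the filter was dropped, edgeR called Sult3a1 (adjusted p = 0.0150), while limma on log2(TPM + 1) without a filter did not (adjusted p = 0.0549). Sult3a2, a close copy next to it, had 2 counts with resmetirom and 0 in controls, and reads shared between the copies could not be told apart. A processed pseudogene, Gm47935, overlaps Sult3a1 on the opposite strand and is not analysed here.

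In TPM, which can be compared between genes, the order with resmetirom was Sult1a1 (457 ± 89.4), Sult1d1 (185 ± 32.9), Papss2 (55.8 ± 10.1), Sult1b1 (27.4 ± 4.71), Sult5a1 (5.05 ± 0.743), Papss1 (4.42 ± 1.61), Sult1c2 (3.07 ± 0.507) and Sult3a1 (0.846 ± 0.912; SD, n = 4). In controls the first 4 kept their places, at 332 ± 44.9, 176 ± 31.2, 51.2 ± 9.28 and 31.6 ± 6.79 TPM, and Papss1 (6.99 ± 1.48) and Sult1c2 (4.85 ± 1.14) stood above Sult5a1 (1.12 ± 0.603), with Sult3a1 listed at 0 in 3 libraries and at 0.093 TPM in the other. Neighbours whose ranges overlapped were Sult5a1 with Papss1 and Papss1 with Sult1c2 in the resmetirom group, and Papss2 with Sult1b1 and Papss1 with Sult1c2 in controls. The level plot shows a gap between the 4 abundant and the 4 rare genes in both groups.

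**Figure D2:**
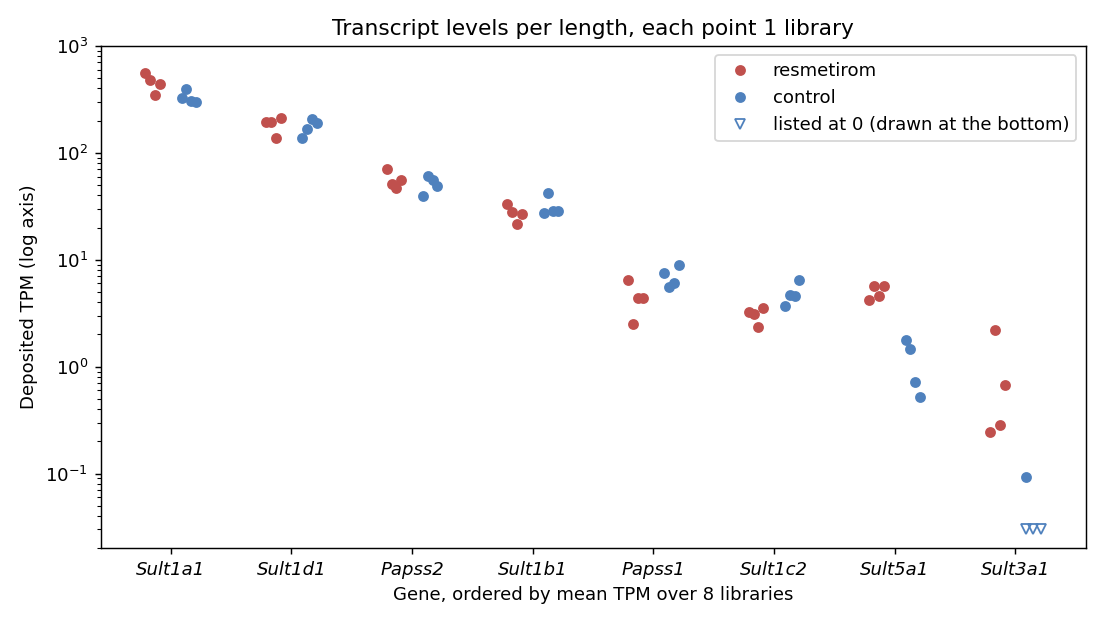
Deposited TPM of the 8 genes on a log axis, 1 point per library, resmetirom (red) left of control (blue), with open triangles for libraries where Sult3a1 is listed at 0. Sult1a1 and Sult1d1 lead in both groups, and Sult5a1 averages 5.05 TPM with resmetirom against 1.12 TPM in controls.

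The 6 sulfotransferases summed to 795.5, 715, 512 and 688 TPM in resmetirom replicates 1 to 4 and to 495, 612, 547 and 528 TPM in control replicates 1 to 4. Resmetirom replicate 3, the library with the largest share of major urinary protein transcripts, lay within the control range. Sult1a1 made up 67.2% ± 2.76 of the sum with resmetirom and 60.9% ± 5.23 in controls, Sult1d1 27.4% ± 2.71 and 32.3% ± 5.69, and Sult1b1 4.05% ± 0.184 and 5.75% ± 0.723 (SD, n = 4 each). These shares come from within a library and so do not depend on its scaling. They do depend on the length used for each gene, which for Sult1b1 differed between libraries. Its counts behind 1 TPM, relative to the library's median gene, were 0.53 to 0.58 with resmetirom and 0.554 to 0.63 in controls. The Sult1b1 share was at most 4.24% in resmetirom libraries and at least 5.25% in controls.

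How far a call depended on the scaling is drawn in the plot of changes under 3 scalings. With library sizes alone, Sult5a1 and Sult1a1 remained called and Papss2 and Sult1d1 did not. Measured from the median of all tested genes, Sult1a1 was 0.94 above it with TMM factors, 0.95 with library sizes alone and 0.85 on the log2(TPM + 1) scale, and Sult1d1 was 0.59, 0.58 and 0.48 above it. In the same order Sult5a1 was 2.38, 2.37 and 1.96 above the median, and Papss1 stood at -0.35, -0.34 and -0.19 relative to it. Such distances stay nearly the same by construction, since a scaling moves all genes together, and do not show which scaling is right. The authors' deposited table, whose log2 fold changes are ratios of mean TPM, gives Sult5a1 2.17 (adjusted p = 1.91e-05), Sult3a1 5.18 (adjusted p = 0.00154) and Sult1a1 0.46 (adjusted p = 0.00299) as higher. The authors' deposited table gives Papss1 -0.66 (adjusted p = 0.0117) and Sult1c2 -0.66 (adjusted p = 0.0396) as lower, and Papss2 0.12 (adjusted p = 0.349) and Sult1d1 0.075 (adjusted p = 0.475) without a call.

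**Figure D3:**
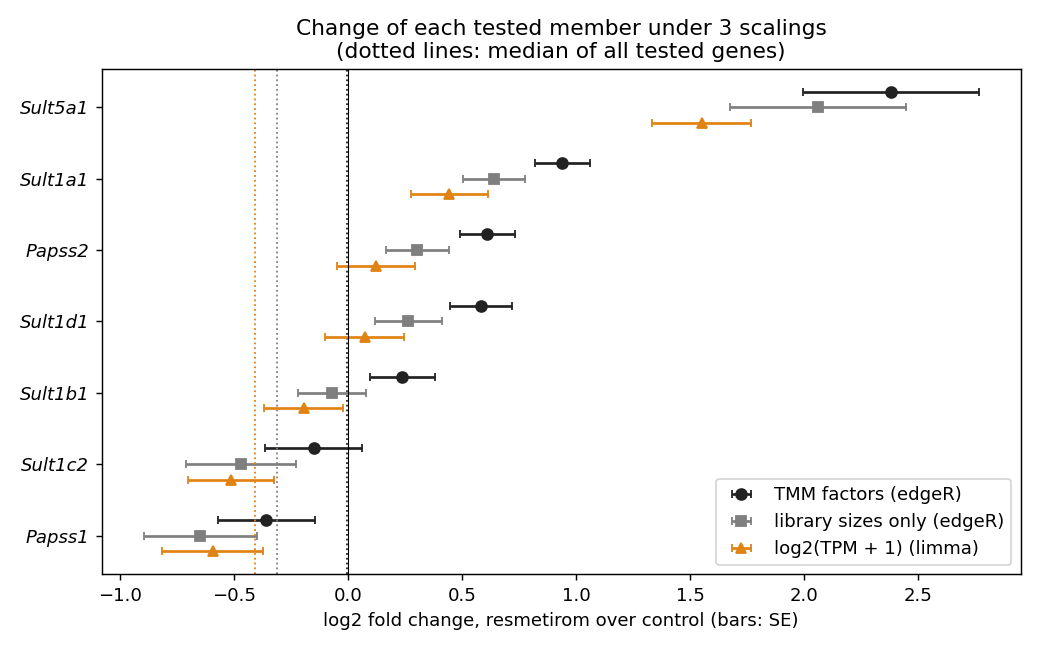
Log2 fold change of the 7 tested genes, resmetirom over control, with bars for the SE, under TMM factors (black circles), library sizes alone (grey squares) and log2(TPM + 1) (orange triangles). Dotted lines give the median of all tested genes under each scaling, and with the other scalings each gene's symbols lie left of its TMM symbol, as the median lines do.

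Genes that feed or surround the sulfation reaction were read from the same fit. Of 13 tested genes on the route from cysteine to sulfate, 4 rose and 2 fell, where 2.60% of all genes tested rose and 1.99% fell, and the list's median log2 fold change was 0.23 against -0.0043 for all genes. Cdo1, the dioxygenase that commits cysteine to oxidation, had 2341 ± 261 CPM with resmetirom and 1525 ± 40.4 CPM in controls (SD, n = 4 each; log2 fold change 0.62, SE 0.095, adjusted p = 0.00261). Cth, which releases cysteine from cystathionine, rose by 1.01 (SE 0.19, adjusted p = 0.0114), and Mocs2, needed for the cofactor of sulfite oxidase, by 0.41 (SE 0.077, adjusted p = 0.00980). Sqor, which oxidises sulfide in mitochondria, fell by 0.58 (SE 0.085, adjusted p = 0.00189). The other called genes, named after their values were seen, were Cbs, at 0.41 (SE 0.10, adjusted p = 0.0428), and Ethe1, at -0.68 (SE 0.16, adjusted p = 0.0364), an enzyme of the sulfide pathway like Sqor. Both calls depended on single libraries: that of Ethe1 was lost on leaving out any of resmetirom replicates 1, 2 and 3 and control replicates 1 and 4, and that of Cbs on leaving out any of resmetirom replicates 2, 3 and 4 and control replicates 3 and 4. Suox, the sulfite oxidase that forms sulfate itself, was at 121 CPM in both groups and was not called (-0.0013, SE 0.11). With library sizes alone or TPM, 0 to 1 genes of this list were called higher and 2 to 5 lower. Of all 12207 genes tested, 151 were called higher and 1961 lower with library sizes alone, and 123 and 4648 on log2(TPM + 1).

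No gene of sulfate transport, PAPS transport or PAP breakdown passed, out of 9 tested, where 4.59% of all genes tested passed in either direction. The smallest p was that of the anion exchanger gene Slc26a6, at 1.99 CPM with resmetirom and 0.963 CPM in controls (log2 fold change 1.04, SE 0.38, adjusted p = 0.163). Bpnt1, which degrades PAP, the product that PAPS leaves behind, was at 70.2 CPM with resmetirom and 67.1 CPM in controls (0.066, SE 0.083). Of 17 tested sulfotransferases of the Golgi, which use PAPS on sugars, lipids and tyrosines, 2 fell: Gal3st1, which makes sulfatide, by 2.08 (SE 0.25, adjusted p = 0.000544), and the tyrosylprotein sulfotransferase gene Tpst2, by 0.53 (SE 0.13, adjusted p = 0.0428). Gal3st1 was called under all 19 alternatives and Tpst2 under 10. The Tpst2 call was lost on leaving out any of resmetirom replicates 2, 3 and 4 and control replicates 1, 3 and 4. Of 13 tested sulfatase genes, which remove sulfate, 2 fell. Arsa, the lysosomal enzyme that removes sulfate from sulfatide, fell to 13.4 CPM with resmetirom, against 60.7 CPM in controls (-2.19, SE 0.25, adjusted p = 0.000930), and Sulf2, an extracellular heparan sulfatase, fell to 2.79 CPM, against 12.6 CPM (-2.17, SE 0.26, adjusted p = 0.000478). Arsa and Sulf2 were called under all 19 alternatives.

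**Figure D4:**
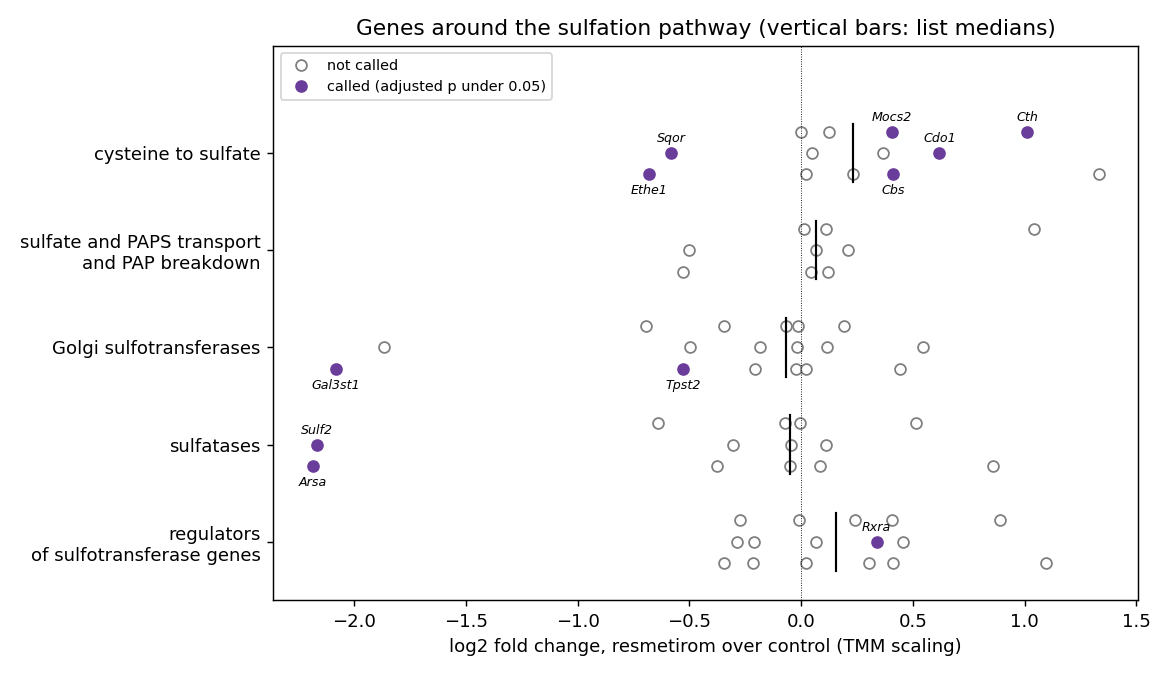
Log2 fold change, resmetirom over control, of every tested gene in 5 lists around the sulfation pathway, with filled points for called genes, open points for the rest and a vertical bar for each list's median. Called genes lie on either side of 0 in the cysteine to sulfate list, all below 0 among Golgi sulfotransferases and sulfatases, and none is called in transport and PAP breakdown.

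Of 16 tested genes for receptors and factors known to act on sulfotransferase genes, only Rxra, the partner of many nuclear receptors, passed, at 0.34 on the log2 scale (SE 0.083, adjusted p = 0.0384), where 4.59% of all genes tested passed in either direction. Its call was lost when any of the 8 libraries was left out, with library sizes alone and in TPM. With library sizes alone and in TPM, 5 genes of the list were called lower, as were 1961 to 4648 of all tested genes. In the Sult2a branch of the family, Sult2a1 had 55349 counts summed over the resmetirom libraries and 3 over the control libraries, and Sult2a8 was at 349 CPM with resmetirom and 528 CPM in controls without passing (-0.60, SE 0.24, adjusted p = 0.227). Of all other cytosolic sulfotransferase genes 6 were tested, of which 4 were called higher: Sult2a1, Sult2a2, Sult2a3 and Sult2a5. These had 3, 6, 0 and 0 control counts and passed the count filter through the resmetirom libraries alone, so their number is no support for a shift of the list. Reads shared between these close copies could not be told apart. The Sult2a3 call held under 11 of the 19 alternatives, and under 1 of the 8 that left out a library.

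Because Sult3a1 is expressed more in female mouse liver, sex-biased liver genes outside the family were set beside it. Of all genes tested, 2.60% rose and 1.99% fell. Of 11 tested female-biased genes 5 rose and none fell, among them Cyp2a4 (log2 fold change 3.32, SE 0.24, adjusted p = 0.000104), Ntrk2 (3.95, SE 0.34, adjusted p = 4.65e-05) and A1bg (5.46, SE 0.86, adjusted p = 0.00327), while Cyp3a44 had 2234 counts with resmetirom and 0 in controls. Of the 6 not called, Cyp2b9 (-0.62, SE 0.79) and Acot3 (-0.49, SE 0.65) had negative changes, and Fmo2, Cyp2b13, Cyp3a16 and Prom1 positive ones. Of 11 tested male-biased genes 5 were called lower and none higher, among them Cyp2d9 (-2.86, SE 0.14, adjusted p = 3.06e-07), Cyp4a12a (-6.72, SE 0.47) and Cyp2u1 (-2.46, SE 0.32). Of the 6 not called, Cyp7b1 was at 0.73 (SE 0.19, adjusted p = 0.0550), with every resmetirom library above every control library, and the others had negative changes. Among the latter, Elovl3 (-2.20, SE 0.79) and Slco1a1 (-3.66, SE 0.89) had every resmetirom library below every control library. With DESeq2, with the replicate block and without control replicate 1, 1 male-biased gene was called higher. Of the 5 female-biased genes called higher, A1bg, Cyp3a44 and Cyp3a41a had 4, 0 and 2 control counts and passed the count filter through the resmetirom libraries alone, so their number is no support for a shift of the list. Cyp2a4 and Ntrk2, with 8137 and 54 control counts, were called under all 19 alternatives. The part of this pattern in the Sult3a1 counts was not tested.

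Liver zones and cell types were read in the same way, and their part in the results on the 8 genes was not tested. Of 10 tested pericentral markers 3 rose (Gulo by 0.79, Lect2 by 0.74 and Lgr5 by 1.15) and 1 fell (Cyp1a2, by 1.94), and of 8 periportal markers Cps1 rose by 0.76 and Hsd17b13 fell by 0.53. Among 7 hepatocyte markers Tat rose, by 1.63. For all genes tested, 2.60% rose and 1.99% fell. Of the 8 alternatives that left out a library, 2 called Lgr5 and 4 called Hsd17b13. With library sizes alone or TPM the counts differed: 0 to 1 pericentral markers were called higher and 3 to 5 lower, 0 periportal markers higher and 2 to 4 lower, and 1 hepatocyte marker higher and 3 to 4 lower. Of all 12207 genes tested, 151 were called higher and 1961 lower with library sizes alone, and 123 and 4648 on log2(TPM + 1). No marker of cholangiocytes (4 tested), macrophages (6), endothelium (6), stellate cells (6), lymphocytes (3), intestine (2) or kidney (1) was called, and none of the adipocyte list was tested. With library sizes alone or TPM, 2 to 5 endothelial, 0 to 2 stellate and 0 to 1 cholangiocyte markers were called lower. Under these scalings 1961 to 4648 of all tested genes were called lower. Summed marker levels overlapped between the groups for macrophages (280 to 774 CPM with resmetirom, 436 to 691 CPM in controls) and for endothelium (166 to 250 CPM and 192 to 273 CPM).

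Genes whose levels followed those of the 8 genes most closely over the 8 libraries were found by Pearson's r of log2(CPM + 0.5), a description in which the difference between the groups is included. Sult1a1 was nearest to Apoh (r = 0.992), Fads2 (r = 0.990) and Tmem62 (r = 0.980). Sult5a1 was nearest to the major urinary protein genes Mup9 (r = 0.988), Mup17 (r = 0.987) and Mup15 (r = 0.987), which are near-identical copies. Papss2 was nearest to Nsun3 (r = 0.977), Cd1d1 (r = 0.975) and Gramd1c (r = 0.973), and Sult1d1 to Tdo2 (r = 0.984), Svip (r = 0.980) and Asns (r = 0.975). Sult1b1, Sult1c2 and Papss1 were nearest to Mppe1 (r = 0.967), A430033K04Rik (r = 0.957) and Fkbp1a (r = 0.947).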

How the data were processed

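RNA-seq of 8 mouse liver libraries was analysed from 1 deposited table of 22013 genes, of which 5994 had no counts. Per the file headers, the authors deposited whole-number counts per gene, TPM values, a log2 fold change of mean TPM, and a p-value with its adjusted p-value whose tool those headers do not name. Per the submitters' processing notes, the tools included HISAT2 2.1.0, Bowtie2 2.2.8, RSEM, StringTie 1.3.1, edgeR, DESeq2 and fastp 0.18.0, and the build mm10; their roles are not given in the sources used here.

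From the counts, edgeR 4.0.16 (R 4.3.3) tested resmetirom against control (filterByExpr, TMM factors, robust quasi-likelihood fit on group, Benjamini-Hochberg adjustment over all 12207 genes, threshold 0.05). The SE was taken from the change and its F statistic, and 95% intervals use the residual degrees of freedom. Alternatives used DESeq2 1.42.0, limma 3.58.1 (voom, or log2 TPM with pseudocounts of 1 and 0.1), other factors, other filters, a replicate block and leaving out each library. The procedure was tested on simulated data. Library pairs within a group differed beyond counting error (chi-square per degree of freedom 13.9 or more).

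The 8 genes and all lists were chosen with earlier results of these data known. The rule named all 8 genes, up to 4 called genes of each list by smallest p, or else the 1 with the smallest p, and the 3 nearest patterns of each gene with a mean of at least 1 CPM. Positions came from GENCODE M21 on GRCm38, the assembly of mm10, and promoters from RefSeq, where all 8 genes matched. A planned protein comparison was not made. PCR duplicates carry no molecular identifiers, so counting intervals cover counting error only.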

Additional observations from a re-analysis of the deposited data

Results flagged for a closer look

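In groups of 4 libraries, a value was picked out when its gap to the nearest other value took more than 0.829 of the group's range. For normally distributed values chance alone picks about 1 in 20 groups, and 9 of 88 were picked here. A group in which all values but 1 are 0 is always picked, as for Sult3a1 and Sult2a1 in controls. The 2 rates thus cannot be compared directly. Among the 8 genes, Sult1b1 was at 35.4 CPM in control replicate 2, against 22.7 to 24.7 CPM in the other controls. Sult3a1 was at 0.0494 CPM in control replicate 4, which is 1 count, and at 0 in the other controls. In resmetirom replicate 3, Lgr5 was at 6.53 CPM, against 3.55 to 3.77 CPM in the others, and Cps1 at 4410 CPM, against 5960 to 6090 CPM. Cdo1 was at 2730 CPM in resmetirom replicate 4, against 2180 to 2250 CPM in the others. Sult2a2 was at 195 CPM in resmetirom replicate 2, against 457 to 484 CPM. Tpst2 was at 14.9 CPM in control replicate 2, against 19.1 to 19.7 CPM in the other controls. In control replicate 3, Marco was at 37.3 CPM, against 14.0 to 15.6 CPM, and Sult2a1 at 0.136 CPM, which is all 3 of its control counts.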

How the results depend on the processing

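Under 19 alternatives the count of the 8 genes called higher, 4 with TMM factors, was 2 with library sizes alone, on the log2(TPM + 1) scale and on the log2(TPM + 0.1) scale, and 1 on log2(TPM + 1) without a filter. It was 5 without the count filter, which lets Sult3a1 in. The count called lower, 0, was 2 on log2(TPM + 1) and on log2(TPM + 0.1), Papss1 and Sult1c2. Over all genes, 317 rose and 243 fell, against 151 and 1961 with library sizes alone, 532 and 411 with DESeq2, 123 and 4648 on log2(TPM + 1), 122 and 4608 on log2(TPM + 0.1), and 118 and 3880 on log2(TPM + 1) without a filter. Leaving out 1 library gave 182 to 313 rises, 149 to 238 falls and 2 to 4 of the 8 genes higher, the lowest counts all without control replicate 4. Without resmetirom replicate 4 there were 208 rises and 161 falls. Sult1b1 turned to -0.0693 with library sizes alone, -0.194 on log2(TPM + 1) with or without a filter and -0.20 on log2(TPM + 0.1). The other 6 tested genes kept their direction. The cause of these differences was not tested.

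Replicate numbers are shared between the groups. Deviations from the group means correlated at -0.336, 0.212, -0.207 and -0.0857 for numbers 1 to 4, and only number 2 was the best match of its own number. The labels do not say that equal numbers mark pairs, and 4 such correlations are too few to exclude it. With the replicate block 240 genes rose and 166 fell, and 4 of the 8 genes rose. Calls in the lists moved with scaling: with library sizes alone or TPM, 0 to 1 rises and 2 to 5 falls were seen on the route from cysteine to sulfate, 4 to 6 falls among sulfatases, 3 to 6 among Golgi sulfotransferases, 5 among receptors and factors, and 0 to 3 in transport and PAP breakdown. Under these scalings 1961 to 4648 of all tested genes fell, against 243 with TMM factors.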
